A study of Mus musculus with 4 samples.

Results

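Endothelial cells, which line the blood vessels, made up 789 of the 39461 nuclei kept from the posterior hindbrain (2.00%), and they were taken as the nuclei that the authors' table marks as kept and annotates as Endothelial among 14 cell types. Single-nucleus RNA sequencing was performed on a piece of hindbrain with the nucleus of the solitary tract and the area postrema, in 4 libraries, 2 per group. The study aimed to define which cells of this region turn on Fos, an activity gene, when feeding neurons of the hypothalamus are switched. In AgRP-Gq;POMC-Gi mice (AgRP-IRES-Cre+/-;hM3DGqfl/-;POMC-Dre+/-;hM4DGifl/-), clozapine-N-oxide (CNO) activates AgRP neurons through hM3DGq and silences POMC neurons through hM4DGi. Controls are called WT in the labels, while the methods describe controls that carry both floxed receptor alleles and lack the recombinases. All mice were adults of 12 to 20 weeks, of both sexes and on a C57BL/6 background, and all received 3 mg per kg CNO and were without food for the 1 h before tissue was taken. Cre and Dre are driven from the Agrp and Pomc genes. Whether endothelial cells carry either receptor was not tested, and counts of Agrp and Pomc RNA in endothelial nuclei are given at the end. The methods give 2 mice per group for this assay and say that samples of one condition were pooled, and no source used here ties a library to one mouse. Xist and Y-linked RNA were both counted in the libraries, in amounts that differed with the group (given with the gene comparison). The p-values here measure only the spread between libraries, which may be technical.

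Endothelial cells of the brain form the blood-brain barrier: claudin-based tight junctions seal the gaps between them, efflux pumps of the ABC family return drugs and metabolites to the blood, and solute carriers bring in glucose, amino acids and hormones. Wnt signalling from the surrounding tissue keeps this programme on. Along the vessel, arterial, capillary and venous cells differ in their genes, and in the area postrema, one of the sensory circumventricular organs, and in the choroid plexus the vessels are fenestrated and leaky. Hormones such as glucocorticoids reach these cells directly from the blood and act through a nuclear receptor on target genes.

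The endothelial nuclei held 1311698 UMIs, with a median of 1460 UMIs and 998 genes per nucleus. The control libraries gave 218 and 246 nuclei with 366933 and 429988 UMIs, and the libraries of AgRP-Gq;POMC-Gi mice gave 113 and 212 nuclei with 171720 and 343057 UMIs. Replicate 1 of the latter group was thus the thinnest, and where 4 values are listed below they follow this order. No barcode was used by endothelial nuclei of more than 1 library. Levels are given as CPM, the counts of a gene scaled to a fixed total of the summed endothelial UMIs of a library.

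The promoter windows of 3 of the genes that separated endothelial nuclei most from other cell types, and of 1 hormone-induced gene compared between groups later, are printed here, from 250 bases before to 50 bases after a RefSeq start site on GRCm38.p6 and read 5′ to 3′ on the gene's strand. Egfl7 encodes a secreted vascular matrix protein, Tie1 a receptor of the angiopoietin system, and Dipk2b is the gene with the highest ratio over other types. Capitals mark the ETS core GGAAGT or its reverse complement in these 3, since ETS factors such as Erg are known endothelial regulators, and in Mt1, a metallothionein gene, they mark the inverted repeat bound by the glucocorticoid receptor, ACANNNTGT. The windows lie at chr2:26580833-26581132 (plus strand, Egfl7), chr4:118489800-118490099 (minus strand, Tie1), chrX:18461348-18461647 (minus strand, Dipk2b) and chr8:94178839-94179138 (plus strand, Mt1).
Egfl7: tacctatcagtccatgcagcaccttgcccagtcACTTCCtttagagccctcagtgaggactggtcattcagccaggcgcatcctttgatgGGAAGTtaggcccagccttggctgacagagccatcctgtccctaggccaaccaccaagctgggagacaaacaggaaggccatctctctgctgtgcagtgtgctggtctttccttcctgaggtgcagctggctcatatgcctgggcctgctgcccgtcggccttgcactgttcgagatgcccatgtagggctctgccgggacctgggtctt
Tie1: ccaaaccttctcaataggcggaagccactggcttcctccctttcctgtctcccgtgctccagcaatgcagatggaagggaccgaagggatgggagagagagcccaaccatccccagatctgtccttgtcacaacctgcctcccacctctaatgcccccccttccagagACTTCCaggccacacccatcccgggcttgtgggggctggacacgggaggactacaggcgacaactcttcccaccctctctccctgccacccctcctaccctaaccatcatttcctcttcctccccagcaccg
Dipk2b: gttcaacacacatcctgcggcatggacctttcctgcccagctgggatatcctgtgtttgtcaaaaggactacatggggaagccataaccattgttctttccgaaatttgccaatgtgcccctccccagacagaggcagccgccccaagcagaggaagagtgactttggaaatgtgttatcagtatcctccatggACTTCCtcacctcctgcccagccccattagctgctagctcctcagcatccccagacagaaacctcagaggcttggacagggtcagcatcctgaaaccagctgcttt
Mt1: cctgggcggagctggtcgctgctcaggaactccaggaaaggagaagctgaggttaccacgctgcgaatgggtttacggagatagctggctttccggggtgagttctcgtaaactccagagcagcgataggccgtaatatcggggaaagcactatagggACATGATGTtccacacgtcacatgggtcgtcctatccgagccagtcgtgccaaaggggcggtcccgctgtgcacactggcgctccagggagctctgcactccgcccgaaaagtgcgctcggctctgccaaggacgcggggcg
The printed windows are among those with a match, and where a gene has several windows the one with most matches is printed. On both strands, the ETS core was in 5 of 21 windows (23.8%) of the 15 of 20 most specific genes that had a window. These 5 windows belong to 4 genes, and the share over all 32851 windows was 23.8%. The SOX core ACAAT was in 33.3% of the same 21 windows and in 31.0% of all windows. ACANNNTGT was in 3 of 23 windows (13.04%) of the 13 of 16 glucocorticoid-induced genes with a window, from 2 genes, Mt1 and Sgk1. It was in 3 of the 21 windows (14.29%) of the most specific genes and in 6.85% of all. Each motif was counted on its own, also where matches of different motifs overlap, and a match is a description of letters only.

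The defining markers of the annotation were highest in endothelial nuclei, which describes the annotated nuclei and is not a test of the annotation. Flt1 (VEGF receptor 1, chr5:147561604-147726011, minus strand) was detected in 95.6% of endothelial nuclei, at 5143 ± 634 CPM (SD, n = 4 libraries). The next highest type for Flt1 was mural cells, the pericytes and smooth muscle of the vessel wall, at 326 ± 42.7 CPM. Cldn5 (claudin 5, the main tight junction strand protein, chr16:18776847-18778262, plus strand) was detected in 59.1% of nuclei, at 785 ± 186 CPM, against 45.1 ± 44.0 CPM in F13a1.Immune nuclei. Pecam1 (an adhesion molecule of endothelial borders, chr11:106654217-106750628, minus strand) was detected in 52.6%, at 552 ± 102 CPM, and Ms4a4b.Immune nuclei followed at 134 ± 150 CPM. In oligodendrocyte nuclei, at a higher median of 2460 UMIs, the same genes had a UMI in 0.737%, 1.00% and 0.559% of nuclei. After thinning each nucleus to 800 UMIs, the shares in endothelial nuclei were 89.7%, 43.1% and 34.7%. RNA of other cells was also counted: Ttr, the leading RNA of choroid plexus, had a UMI in 59.1% of endothelial nuclei.

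**Figure D1:**
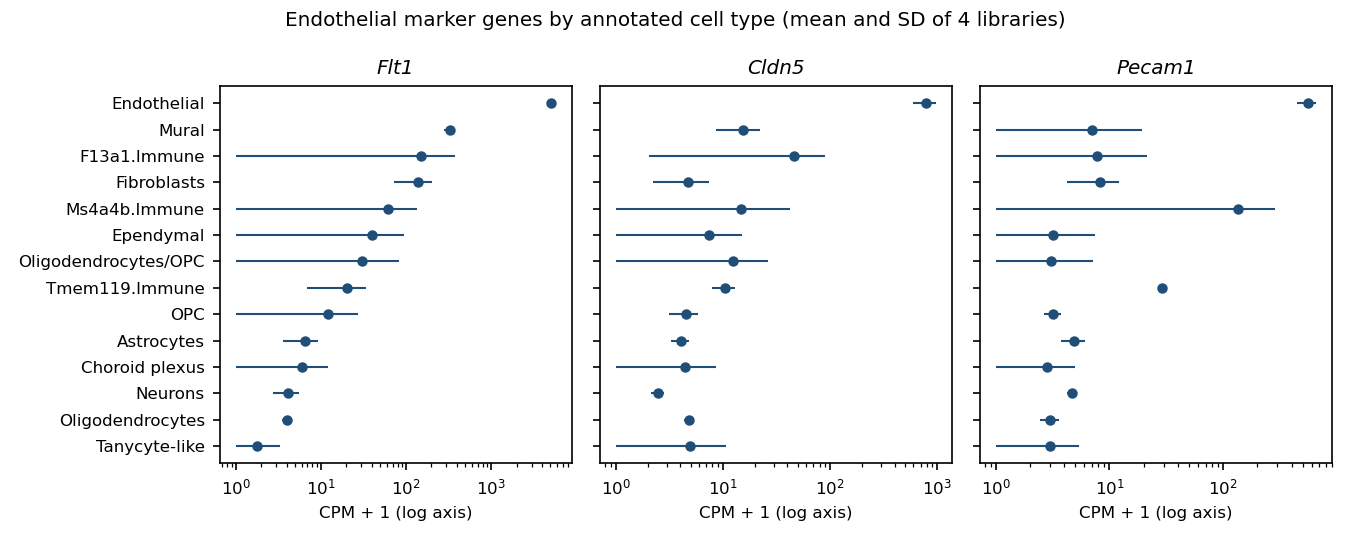
Level of Flt1, Cldn5 and Pecam1 (horizontal log axis, CPM + 1) in each annotated cell type (vertical axis), as the mean of 4 libraries with SD bars, which are cut off at 0 CPM on the lower side. Endothelial nuclei lie to the right of every other type for all 3 genes, and Flt1 in mural nuclei comes nearest in that panel.

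Of 3268 genes at 50 CPM or more in every library's endothelial nuclei, 708 had their highest mean level there and 43 were at least 10 times above the next type, a description of the annotated nuclei and not a test. Dipk2b led with 281, 230, 239 and 224 CPM in the 4 libraries, 118 times the next type, Oligodendrocytes/OPC nuclei at 2.06 ± 4.13 CPM. That type held only 123 nuclei, so the size of this ratio rests on very few counts. Ccm2l, of the cerebral cavernous malformation pathway, followed at 174 ± 12.7 CPM, 87.9 times the next. The 20 leading genes held transcription factors (Sox17, Erg, Gata2 and Zfp366), receptors and junction regulators (Tie1, Adgrl4 and Rasip1), the organic anion transporter Slco1a4 and the chemokine Cxcl12. Egfl7 was at 1031 ± 191 CPM, 44.4 times the next type, and Adgrl4, an adhesion receptor of angiogenesis, was at 2342 ± 439 CPM, 36.1 times the next. Among these 20 the libraries varied most, relative to the mean, for Tecrl, at 240, 167, 117 and 58.3 CPM, where both AgRP-Gq;POMC-Gi libraries lay below both controls.

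The nuclei fell into 6 of the authors' clusters, and the arterial, venous and fenestrated marker lists were each highest in a different cluster, while the capillary list was high in several. These genes helped to form the clusters, so their levels describe the clusters and were not tested. Cluster 24 held 341 nuclei, cluster 32 held 203, cluster 106 held 92, cluster 131 held 65, cluster 164 held 46 and cluster 169 held 42. Cluster 24 was capillary-like, with all 10 capillary markers detected at a summed 5514 CPM. All 10 were also detected in clusters 32, 106, 131 and 169, at 6424 CPM in cluster 32 and 4630 CPM in cluster 169. The 10 leading genes of cluster 24 held Slc22a8, an organic anion transporter of the barrier, at 334 CPM and Axin2, a Wnt target, at 69.6 CPM. Its Tfrc (transferrin receptor) was at 375 CPM and its Slco1c1 (thyroid hormone transporter) at 1657 CPM, above every other cluster. Fold differences of its leading genes over the other endothelial nuclei were small, 2.80 at most.

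Cluster 106 was venous-like. Of 12 venous markers 10 were highest there, at a summed 8590 CPM against 1508 CPM in the next cluster. Il1r1, the interleukin 1 receptor, was at 3588 CPM and had a UMI in 88.0% of its nuclei, against 57.5 CPM in the other endothelial nuclei. Vwf (von Willebrand factor) was at 1233 CPM and Vcam1 (the leukocyte adhesion molecule VCAM-1) at 605 CPM. Its 10 leading genes also held Lcn2 (lipocalin 2) at 385 CPM, Ptgs2 (cyclooxygenase 2) at 215 CPM, Ch25h (cholesterol 25-hydroxylase) at 116 CPM and Ackr1, a chemokine-binding receptor of venules, at 132 CPM. Lcn2 was uneven over libraries in cluster 106. It was at 141 and 139 CPM in controls against 471 and 793 CPM in AgRP-Gq;POMC-Gi, from 6, 8, 13 and 43 UMIs.

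Cluster 131 was arterial-like, with 15 of 16 arterial markers highest there and a summed 4017 CPM against 690 CPM in the next cluster. Bmx, an arterial tyrosine kinase, was at 412 CPM against 15.9 CPM in the other endothelial nuclei. Mgp (matrix Gla protein) was at 1535 CPM, Fbln5 (fibulin 5, an elastic fibre protein) at 184 CPM, Gkn3 at 254 CPM and Vegfc at 219 CPM. The capillary list summed to 930 CPM in these nuclei against 5514 CPM in cluster 24. Among transporters, Slc7a5 was at 35.1 CPM against 812 CPM in cluster 24 and Slco1a4 at 745 against 4019 CPM. Others were closer, with Slc2a1 at 1193 against 1668 CPM and Slc16a1 at 35.1 against 44.6 CPM.

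Cluster 164 was fenestrated-like and lacked most of the barrier programme. All 9 fenestrated markers were highest there, at a summed 7105 CPM against 526 CPM in the next cluster. Plvap, the protein of fenestral diaphragms, was at 523 CPM against 5.63 CPM in the other endothelial nuclei. The lipid phosphatases Plpp1 and Plpp3 were at 2586 and 2179 CPM, the VEGF co-receptor Nrp1 at 2906 CPM and Kdr (VEGF receptor 2) at 712 CPM. Cldn5 was at 58.1 CPM there and at 692 CPM in cluster 24, Abcb1a (P-glycoprotein) at 43.6 and 1302 CPM, and Slc2a1 (the glucose transporter GLUT1) at 29.1 and 1668 CPM. Lef1, a transcription factor of the Wnt pathway, was at 29.1 CPM there against 1190 CPM in cluster 24, and Ocln (occludin), Lsr and Mfsd2a had no UMI in the 68827 UMIs of cluster 164. Not every pump was low, since Abcg2 was at 973 CPM there and 1459 CPM in cluster 24.

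The fenestrated-like nuclei came mostly from 1 library. They numbered 1, 34, 2 and 9 by library, so control replicate 2 gave 73.9% of them. That library and AgRP-Gq;POMC-Gi replicate 2 also held the choroid plexus nuclei, which made up 0.0206%, 4.34%, 0.0617% and 3.30% of kept nuclei. Ttr in endothelial nuclei followed the same order, at 8.18, 7807, 40.8 and 4200 CPM, and within cluster 164 Ttr had a UMI in 93.5% of nuclei at 15677 CPM. The part of dissection and of choroid plexus vessels in cluster 164 was not tested.

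**Figure D2:**
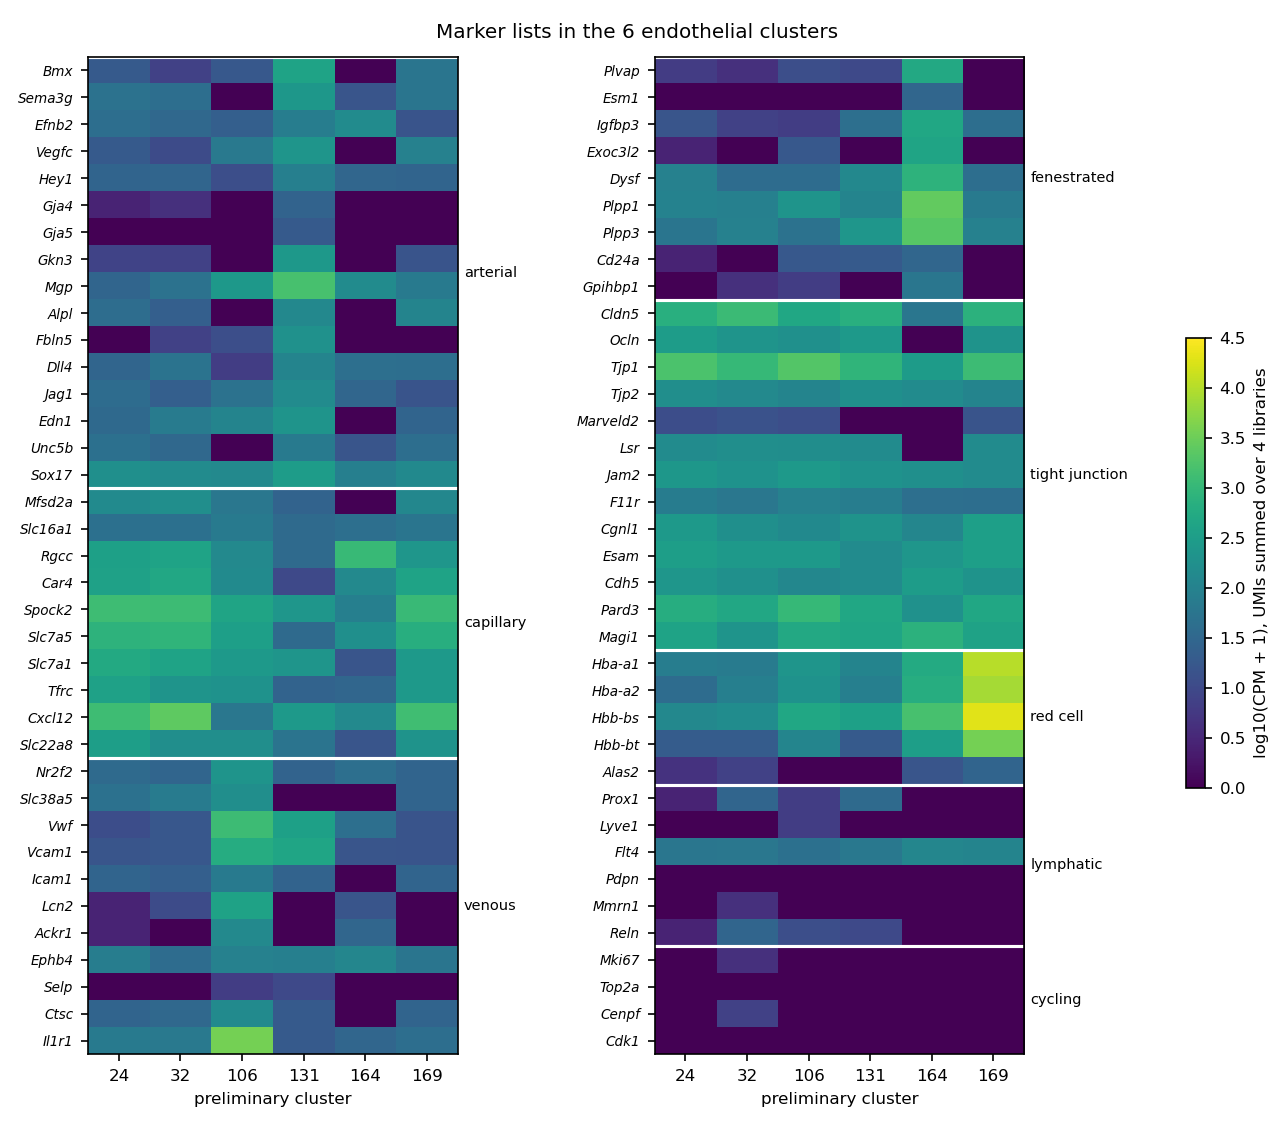
Levels of the members reported here of 8 marker lists (rows, grouped by list) in the 6 endothelial clusters (columns), as log10(CPM + 1) of UMIs summed over the 4 libraries. Arterial genes peaked in cluster 131, venous genes in cluster 106, fenestrated genes in cluster 164 and haemoglobin genes in cluster 169, while cycling genes were near 0 and Flt4 was the lymphatic marker seen in every cluster.

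Cluster 32 and cluster 169 were left unnamed, because genes of other cells were among their leading genes. In cluster 32 Pakap (198 CPM) had the highest ratio over the other endothelial nuclei, followed by Rgs5, a pericyte gene, at 978 CPM, and by Robo1, Tmeff2 and Pcdh9 at 432, 684 and 2824 CPM. Its capillary list summed to 6424 CPM, above cluster 24, while the mural list was at 1106 CPM (271 in cluster 24) and the oligodendrocyte list at 3617 CPM (1779 in cluster 24). The neuron list was at 2424 CPM (835 in cluster 24), and at 1209 CPM without 1 nucleus of 18244 UMIs, left out after seeing the data, which held 402 of its 758 UMIs. Cluster 32 was also shallowest, with a median of 1224 UMIs, and had the highest median mitochondrial share, 1.72%. Cluster 169 was led by the haemoglobin genes, with Hba-a1 at 10261 and Hbb-bs at 19886 CPM, and still had Flt1 at 4928 CPM and a summed capillary list of 4630 CPM. Of 4 proliferation genes Mki67 had 1 UMI and Cenpf 2 in the 789 nuclei. Of 6 lymphatic genes Flt4, a VEGF receptor, had 82 UMIs (63.8 ± 11.5 CPM), Prox1 had 15, Reln had 13 and Lyve1 and Mmrn1 had 1 each. Top2a, Cdk1 and Pdpn had 0, which by the limit of 3 counts allows a share of up to 0.380% of nuclei with a UMI (exact 95% binomial upper bound 0.466%). Intervals and limits from counts cover counting error only.

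The first comparison between groups was of nuclei. Endothelial nuclei made up 2.24% and 2.45% of kept control nuclei, against 1.16% and 2.13% in AgRP-Gq;POMC-Gi. Both AgRP-Gq;POMC-Gi libraries were below both controls, 1.65% ± 0.683 against 2.35% ± 0.146 (SD, n = 2), with an exact permutation p of 0.3333 (two-sided), the smallest that 2 against 2 libraries allow. Neurons made up 25.4% and 27.2% of the control libraries and 38.0% and 36.5% of the others. As a share of nuclei that are not neurons, endothelial nuclei were at 3.01%, 3.36%, 1.87% and 3.35%, and the groups overlapped (exact permutation p = 0.6667). As a share of nuclei that are not oligodendrocytes they were at 4.60% and 4.28% against 1.94% and 3.35%, without overlap (exact permutation p = 0.3333). Mural nuclei, the neighbours of endothelium in the vessel wall, were at 2.97%, 2.50%, 1.06% and 1.64% of kept nuclei.

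Within the endothelium the share of cluster 32 was 22.9% and 22.4% in controls against 29.2% and 30.7% in AgRP-Gq;POMC-Gi, without overlap (exact permutation p = 0.3333, the smallest possible). The venous-like cluster 106 was at 9.63% and 12.2% against 13.3% and 12.3%, also without overlap and by a smaller margin. For clusters 24, 131, 164 and 169 the libraries of both groups overlapped. Without cluster 164, left out after seeing the data, cluster 106 was at 9.68% and 14.2% against 13.5% and 12.8%, with overlap. In the same nuclei cluster 24 was at 53.5% and 43.9% against 43.2% and 41.4%, without overlap, and cluster 32 at 23.0% and 25.9% against 29.7% and 32.0%, again without overlap. The capillary-like cluster 24 ranged from 37.8% to 53.2%, and both ends of that range were control libraries. The median UMIs per endothelial nucleus were 1536 and 1512 in controls against 1371 and 1364 in AgRP-Gq;POMC-Gi, so depth per nucleus differed with the group, and its part in the shares was not tested.

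**Figure D3:**
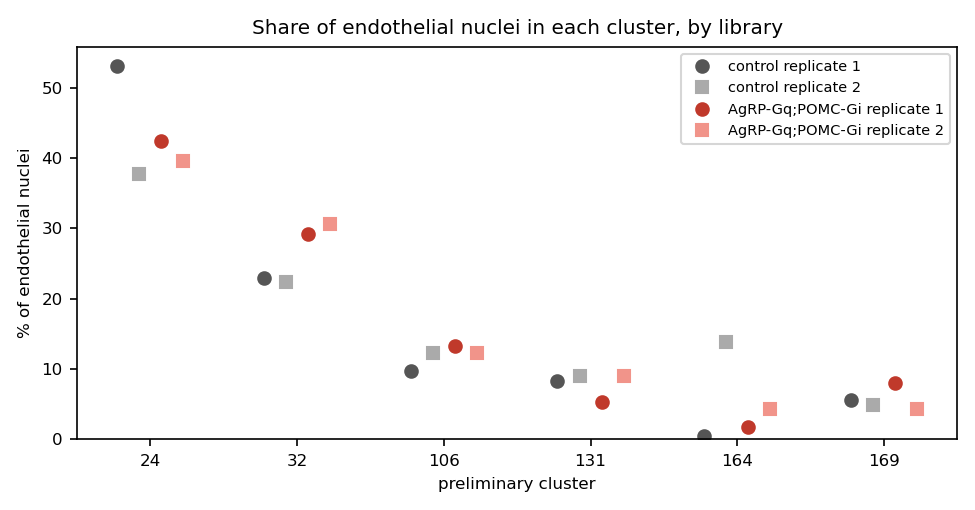
Share of each library's endothelial nuclei (vertical axis, %) in each of the 6 clusters (horizontal axis), with 1 point per library. In cluster 32 both AgRP-Gq;POMC-Gi points lie above both control points, and in cluster 164 control replicate 2 stands apart at 13.8%.

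Gene levels were compared by summing UMIs per library and testing the 5884 genes detected in 5% or more of endothelial nuclei by edgeR's quasi-likelihood test. That filter pooled the nuclei of all libraries, and controls gave more and deeper nuclei, so it favours genes that are high in controls. No gene passed an adjusted p of 0.05 (0 of 5884, 0%), the lowest adjusted p being 0.12. At an unadjusted p under 0.05 there were 365 genes (6.20% of those tested), 161 higher and 204 lower in AgRP-Gq;POMC-Gi, and DESeq2 called 0, with 84 genes whose unadjusted p was under 0.05. With 2 libraries a group, both AgRP-Gq;POMC-Gi libraries lay above both controls for 18.2% of genes and below both for 17.3%, and these shares are the background for the counts that follow. Of the 5884 genes, 3060 had a positive and 2824 a negative log2 fold change, which is the background for counts of signs. The mix of sexes ran with the group: Xist was at 690 and 458 against 408 and 5.83 CPM, and the Y-linked Uty at 79.0 and 83.7 against 128 and 181 CPM and Ddx3y at 38.2 and 44.2 against 58.2 and 108 CPM, none with overlap. Sex and group therefore cannot be told apart in the differences below. With every nucleus thinned to 800 UMIs, 5 of 3391 genes passed the adjusted test, namely Xdh, Zbtb16, Rgcc and Fkbp5 on the lower and Slc7a1 on the higher side, and with 1 library left out 11 to 59 genes passed. The genes named below are those with the smallest p in each direction and members of the gene lists, and their values are given as differences that did not pass the test.

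Among the genes with the smallest p on the lower side, Xdh, Rgcc, Fkbp5 and Zbtb16 were seen in many nuclei. Xdh (xanthine dehydrogenase, which makes urate in purine breakdown, chr17:73883895-73950196, minus strand) was at 951 and 658 CPM in controls against 367 and 271 CPM in AgRP-Gq;POMC-Gi. Its log2 fold change was -1.35 (SE 0.25, edgeR adjusted p = 0.12). Both AgRP-Gq;POMC-Gi libraries were below both controls, and this also held inside clusters 24, 32 and 106. In the capillary-like cluster 24 Xdh was at 1090 and 867 against 447 and 412 CPM. In cluster 32 it was at 717 and 453 against 284 and 178 CPM, and in the venous-like cluster 106 at 1058 and 854 against 471 and 221 CPM.

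Rgcc (a regulator of the cell cycle and a capillary marker, chr14:79288756-79301645, minus strand) was at 455 and 460 CPM in controls against 216 and 128 CPM in AgRP-Gq;POMC-Gi, a log2 fold change of -1.47 (SE 0.26, edgeR adjusted p = 0.12). The groups did not overlap in clusters 24, 32 or 106. Cluster 24 had 464 and 440 against 257 and 152 CPM, and cluster 32 had 731 and 495 against 262 and 149 CPM. Rgcc was also the capillary marker that was highest in the fenestrated-like cluster 164 (1090 CPM), whose nuclei were unevenly spread over libraries. The capillary list as a whole did not lie lower. All 10 members passed the filter, 8 with a positive and 2 with a negative log2 fold change and a median of 0.25. Both AgRP-Gq;POMC-Gi libraries lay above both controls for 4 (background 18.2%) and below both for 2 (background 17.3%). Tfrc and Slc7a1, described below, are members of this list. Fam117b, a gene whose highest mean level was in endothelium, was at 414 and 502 against 245 and 166 CPM (log2 fold change -1.20, SE 0.25, edgeR adjusted p = 0.18).

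Fkbp5 and Zbtb16 belong to a list of 16 genes that glucocorticoids are known to induce, and most of that list lay lower in AgRP-Gq;POMC-Gi libraries. Fkbp5 (a co-chaperone of the glucocorticoid receptor, chr17:28399094-28517527, minus strand) was at 224 and 446 CPM in controls and 122 and 75.8 CPM in the others, a log2 fold change of -1.84 (SE 0.36, edgeR adjusted p = 0.16). Fkbp5 was highest in the fenestrated-like cluster 164 (886 CPM) and the venous-like cluster 106 (765 CPM). Of the 46 nuclei of cluster 164, 34 came from control replicate 2, the library with the highest level of Fkbp5. Without cluster 164, left out after seeing the data, the log2 fold change of Fkbp5 between groups was -1.74 (edgeR adjusted p = 0.094). Cluster 106 had 846 and 1429 against 398 and 185 CPM, and cluster 24 had 173 and 201 against 81.3 and 30.5 CPM. Zbtb16 (a zinc finger repressor, chr9:48654297-48836222, minus strand) was at 897 and 846 against 489 and 274 CPM, a log2 fold change of -1.22 (SE 0.26, edgeR adjusted p = 0.18). In cluster 24 Zbtb16 had 1060 and 936 against 461 and 335 CPM.

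Of the 16 members 14 passed the filter and 0 passed the test. The log2 fold change was negative for 13 of the 14, both AgRP-Gq;POMC-Gi libraries were below both controls for 10 of 14 against 17.3% of all tested genes, and 6 had an unadjusted p under 0.05, against 6.20% of all tested genes in either direction. The median was -0.61, beside 0.02 over all genes tested. Tsc22d3 (GILZ, an anti-inflammatory target of the receptor) was at 202 and 174 against 87.4 and 99.1 CPM, a log2 fold change of -0.99 (edgeR adjusted p = 0.34). Ddit4, an inhibitor of mTORC1, was at 133 and 144 against 69.9 and 52.5 CPM (log2 fold change -1.24, edgeR adjusted p = 0.32). The inhibitor of NF-kappaB Nfkbia was at 488 and 426 against 309 and 335 CPM. Mt1, whose promoter is printed above, was at 384 and 326 against 262 and 236 CPM (log2 fold change -0.52).

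Klf9, a target of the receptor in many tissues, was at 256, 212, 221 and 219 CPM in the 4 libraries. Cebpd was at 210, 95.3, 157 and 169 CPM and was the member with a positive log2 fold change, 0.12. Per1, shared by the clock and glucocorticoid lists, was at 54.5 and 55.8 against 23.3 and 35.0 CPM, without overlap (log2 fold change -0.84, edgeR adjusted p = 0.81), from 60 UMIs in all. The receptor gene itself, Nr3c1, was at 243 and 207 against 227 and 350 CPM, with overlap. The list was chosen with earlier results of these data known, so its direction is not independent support.

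Clock genes lay on both sides of 0. Of 9 genes of the Dbp and Per arm 4 passed the filter, and all of these 4 lay lower in both AgRP-Gq;POMC-Gi libraries (background 17.3%), with a median log2 fold change of -0.83. Because the filter favours genes that are high in controls, this count is not independent support for a lower list. Tef, a PAR-domain factor, was at 49.1 and 97.7 against 29.1 and 11.7 CPM (log2 fold change -2.05, SE 0.55, edgeR adjusted p = 0.34), from 69 UMIs in all. Nr1d2 (REV-ERB beta) was at 98.1 and 135 against 40.8 and 81.6 CPM. Arntl (BMAL1), of the opposite arm of the clock, was at 62.7 and 34.9 against 122 and 105 CPM (log2 fold change 1.21, edgeR adjusted p = 0.41). The labels and the methods of this assay do not give the hour of tissue collection, so a part of clock time was not tested.

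**Figure D4:**
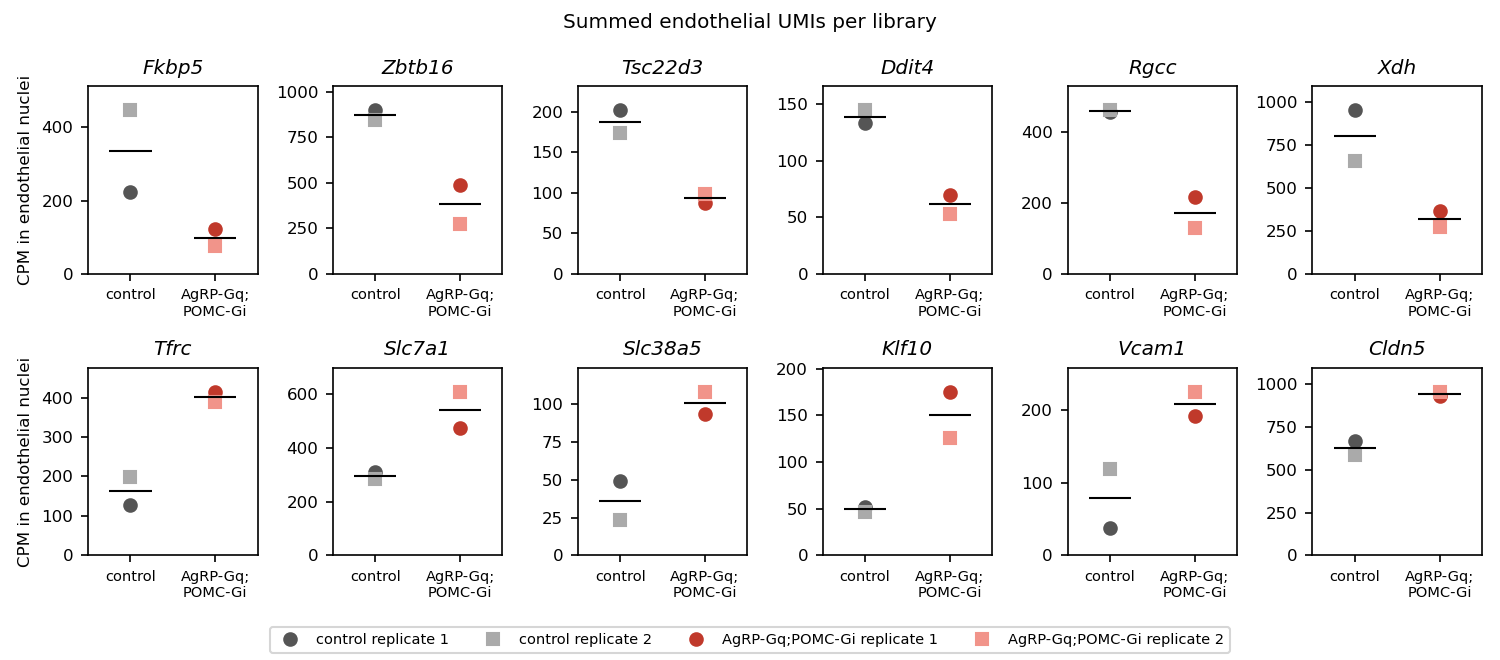
CPM in endothelial nuclei (vertical axes from 0) of 12 genes in each library, with control on the left and AgRP-Gq;POMC-Gi on the right of each panel and a line at each group mean (n = 2). Fkbp5, Zbtb16, Tsc22d3, Ddit4, Rgcc and Xdh lie lower and Tfrc, Slc7a1, Slc38a5, Klf10, Vcam1 and Cldn5 higher in both AgRP-Gq;POMC-Gi libraries, and no gene passed the adjusted test.

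On the higher side, Tfrc, Slc7a1 and Slc38a5 were among the 10 genes with the smallest p, and none of them passed the adjusted test. Tfrc (transferrin receptor, chr16:32608920-32632794, plus strand) was at 128 and 198 CPM in controls against 414 and 388 CPM in AgRP-Gq;POMC-Gi, a log2 fold change of 1.28 (SE 0.25, edgeR adjusted p = 0.16). Inside cluster 24 Tfrc was at 132 and 377 against 651 and 579 CPM, and in cluster 32 at 98.4 and 116 against 372 and 317 CPM, while in cluster 106 the libraries overlapped. Slc7a1 (the cationic amino acid transporter CAT1, chr5:148327410-148399904, minus strand) was at 308 and 284 against 472 and 606 CPM (log2 fold change 0.88, SE 0.21, edgeR adjusted p = 0.28). Slc38a5, a glutamine carrier that is also a venous marker, was at 49.1 and 23.3 against 93.2 and 108 CPM (log2 fold change 1.51, edgeR adjusted p = 0.34).

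Of 26 nutrient transporters 21 passed the filter, 16 had a positive and 5 a negative log2 fold change, and the median was 0.15. Both AgRP-Gq;POMC-Gi libraries lay above both controls for 9 of 21 (background 18.2%) and below for 3 (background 17.3%). Slc6a6, the taurine carrier, was at 905 and 621 against 1246 and 1081 CPM. The lower ones held Slc2a1, which carries glucose, at 2210 and 1451 against 1398 and 1119 CPM (log2 fold change -0.54, edgeR adjusted p = 0.81), and Slc19a3, a thiamine carrier, at 253 and 172 against 146 and 99.1 CPM. Slc7a5, the large amino acid carrier LAT1, was at 706 and 667 against 606 and 586 CPM. Glucose and amino acid carriers thus lay on both sides.

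Klf10, a TGF-beta-induced transcription factor, was at 51.8 and 46.5 against 175 and 125 CPM (log2 fold change 1.56, SE 0.32, edgeR adjusted p = 0.18), from 112 UMIs, and lay higher in both AgRP-Gq;POMC-Gi libraries in clusters 24, 32 and 106. Of 13 genes of BMP and TGF-beta signalling 12 passed the filter, 8 with a positive and 4 with a negative log2 fold change and a median of 0.34. Both AgRP-Gq;POMC-Gi libraries lay above both controls for 7 (background 18.2%) and below both for 1 (background 17.3%). Smad7, an inhibitory SMAD, was at 207 and 195 against 309 and 329 CPM. The BMP target Id1 was at 534 and 416 against 600 and 758 CPM, and Id3 was at 281 and 340 against 373 and 551 CPM. Besides Vcam1, described next, the other genes with the smallest p on this side were Nes, Sox2ot, Gm27201, Alas1 and Ier3, all without overlap, with log2 fold changes from 0.99 to 1.40. Sox2ot was at 205 CPM in cluster 32, left unnamed for its genes of other cells, against 55.1 CPM in the other endothelial nuclei. The part of RNA from other cells in its difference was not tested.

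Of 12 venous markers 8 passed the filter, and all 8 had a positive log2 fold change, with a median of 0.52, while 5 of the 8 did not overlap (background 18.2%). Vcam1 was at 38.2 and 119 against 192 and 225 CPM (log2 fold change 1.39, SE 0.37, edgeR adjusted p = 0.35). Inside the venous-like cluster 106 Vcam1 rested on 5, 32, 22 and 51 UMIs, or 118 and 558 against 797 and 941 CPM. Vwf was at 104 and 230 against 268 and 283 CPM, and Nr2f2, the transcription factor of venous identity, at 24.5 and 53.5 against 69.9 and 93.3 CPM. The share of venous-like nuclei, given above, lay in the same direction, and its part in these values was not tested.

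Of 13 tight junction genes 12 passed the filter, 7 with a positive and 5 with a negative log2 fold change and a median of 0.01. Both AgRP-Gq;POMC-Gi libraries lay above both controls for 4 of the 12 (background 18.2%) and below both for 0. Cldn5 was at 670 and 584 against 932 and 953 CPM (log2 fold change 0.59, SE 0.20, edgeR adjusted p = 0.55), without overlap, and Lsr, a tricellular junction protein, was at 128 and 102 against 198 and 189 CPM. Tjp1 (ZO-1) and Ocln had log2 fold changes of 0.01 and -0.07. Of 12 efflux and vesicle genes 10 passed, with a median of 0.12, 1 above both controls and 3 below both (background 17.3%). Abcb1a was at 1131, 1098, 1141 and 985 CPM, and Abcc4, the pump MRP4, at 1273 and 740 against 711 and 589 CPM (log2 fold change -0.63, edgeR adjusted p = 0.73).

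Of 20 Wnt genes 19 passed the filter, with a median of 0.10. The norrin and Wnt receptor Fzd4 was at 177 and 135 against 87.4 and 64.1 CPM (log2 fold change -1.09, SE 0.31, edgeR adjusted p = 0.36), and the Wnt target Apcdd1 was at 185 and 144 against 291 and 219 CPM. In the Notch pathway, the receptor Notch4 was at 202 and 154 against 111 and 78.7 CPM while the ligand Dll4 was at 27.2 and 27.9 against 34.9 and 67.0 CPM, and 7 of 11 genes passed, with a median of 0.19. The VEGF and Tie list had a median of 0.08 over 11 genes, and Flt1 was at 5641, 4214, 5340 and 5375 CPM with overlap. All 24 endothelial transcription factors passed the filter, 19 with a positive log2 fold change and a median of 0.29. Both AgRP-Gq;POMC-Gi libraries lay above both controls for 9 of the 24 and below both for 1, against 18.2% and 17.3% of all tested genes, and 0 passed the adjusted test. Among them Bcl6b was at 27.2 and 25.6 against 58.2 and 81.6 CPM (log2 fold change 1.45, edgeR adjusted p = 0.35). The direction was not particular to transcription factors. Of 18 endothelial identity genes, all tested, 15 had a positive and 3 a negative log2 fold change, with a median of 0.15. Both AgRP-Gq;POMC-Gi libraries lay above both controls for 6 of these 18 (background 18.2%) and below both for 0 (background 17.3%).

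**Figure D5:**
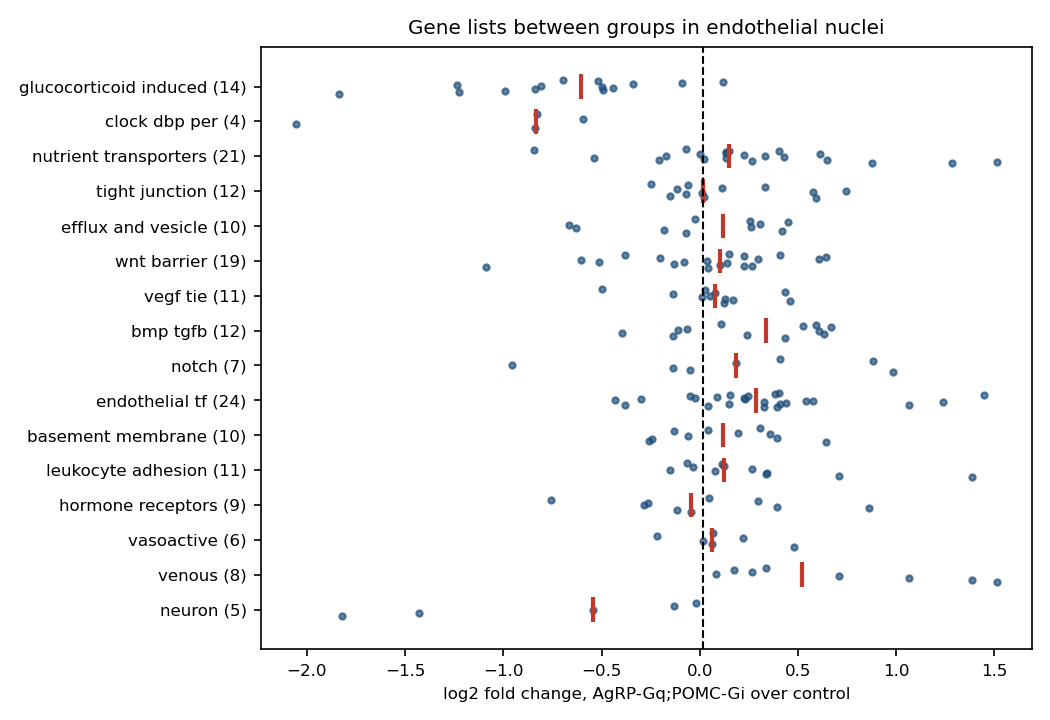
log2 fold change of AgRP-Gq;POMC-Gi over control (horizontal axis) for the tested members of 16 gene lists (rows, with the number tested in brackets), with 1 point per gene, the list's median as a red bar and the median of all tested genes, 0.02, as a dashed line. The glucocorticoid-induced and Dbp and Per lists lie to the left with medians of -0.61 and -0.83, and the venous list lies to the right at 0.52.

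Receptors for metabolic hormones were also read. Insr was at 637 ± 38.7 CPM and Igf1r at 3044 ± 606 CPM, both above every other cell type (Insr next in F13a1.Immune nuclei at 362, Igf1r next in choroid plexus at 414 CPM). Lepr, the leptin receptor, had 54 UMIs in 49 nuclei, at 47.0 ± 23.7 CPM. Its 12, 13, 14 and 15 UMIs by library came from 366933, 429988, 171720 and 343057 UMIs in all, so near-equal counts were not equal levels. Lepr was at 2.69 ± 3.37 CPM in mural nuclei, 91.2 ± 66.8 CPM in choroid plexus and 154 ± 116 CPM in fibroblasts. Mc4r and Ghsr had 0 UMIs in 789 nuclei, which by the same limit of 3 counts allows a share of up to 0.380% (exact 95% binomial upper bound 0.466%), while Glp1r and Calcr had 1 UMI each and Npy1r had 3, so RNA of Mc4r, a melanocortin receptor, and of the ghrelin receptor Ghsr was not detectable at this depth. Of 16 hormone receptor genes 9 passed the filter, with a median log2 fold change of -0.05. In both AgRP-Gq;POMC-Gi libraries 1 gene, Lepr, lay above both controls (background 18.2%) and 1, Adipor2, below both (background 17.3%). Adipor2, an adiponectin receptor, was at 763 and 677 against 512 and 350 CPM (log2 fold change -0.76, edgeR adjusted p = 0.44).

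Some genes with the smallest p had their highest level in other cell types. Csmd1, Lingo2 and Rbfox1, large neuronal genes with their highest level in OPC or neurons, had log2 fold changes of -1.82, -1.55 and -1.43. A single nucleus of control replicate 2 in cluster 32, with 18244 UMIs, held 78 of the 180 UMIs of Csmd1, 89 of 299 of Lingo2 and 98 of 346 of Rbfox1. Without that nucleus, left out after seeing the data, the log2 fold changes were -0.86, -0.96 and -0.86. Gja1 (connexin 43) and the kinase gene Tnik, both highest in astrocytes, were at 98.1 and 123 against 17.5 and 37.9 CPM and at 221 and 172 against 69.9 and 84.5 CPM. The summed neuron list in endothelial nuclei was at 1205, 1658, 635 and 1271 CPM, and 5 of its 7 genes passed the filter, all with a negative log2 fold change and a median of -0.54. Without that nucleus control replicate 2 was at 755 CPM, so the groups still overlapped, and 3 of the 5 genes had a negative and 2 a positive log2 fold change. The red cell list was at 4077, 2721, 4024 and 1283 CPM, lowest in AgRP-Gq;POMC-Gi replicate 2.

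Whether the group difference itself differed between kinds of nuclei was tested as an interaction. Between clusters 24, 32, 106, 131 and 169 it differed for 28 of 5884 genes (0.476%), and none of the 28 had its highest level in endothelium: 11 were highest in oligodendrocytes, 8 in OPC, 5 in neurons and 4 in astrocytes. The leading ones, Nkain2, Pcdh9 and Magi2, are long genes of glia and neurons. Pcdh9 in cluster 169 rested on 54 and 28 UMIs in controls against 0 and 1 in AgRP-Gq;POMC-Gi. With clusters of at least 10 nuclei in every library, 0 genes differed, with 243 at an unadjusted p under 0.05.

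Against mural nuclei the group difference differed for 5 of 6074 genes (0.0823%), Csmd1, Lingo2, Rbfox1, Snhg11 and Grik2, all genes known from neurons. Csmd1 in mural nuclei was at 97.1 and 65.4 against 189 and 303 CPM, opposite to endothelial nuclei. Without the nucleus with most UMIs 2 of these remained, Lingo2 and Csmd1. Against astrocytes 1 of 8357 genes differed (0.0120%), again Csmd1, and none without that nucleus, where 434 genes had an unadjusted p under 0.05 with edgeR.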

How the data were processed

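Nuclei were sorted by DRAQ5 fluorescence and libraries made with the 10x Genomics 3′ kit. The authors mapped reads to GRCm38 (mm10) and counted UMIs with Cell Ranger 7.0.0, and the deposited counts are whole UMI counts per gene and barcode, not normalised. Per their methods, they used Seurat 4.3.0, dropped nuclei with under 800 UMIs, under 500 genes or over 10% mitochondrial RNA, ran a doublet caller, and clustered an embedding made without immediate early genes. The deposited table also gives the mitochondrial percent, cluster and cell type per nucleus, which were used as given, with no doublet calls added here. UMI and gene totals of 44303 of 44303 barcodes equal that table.

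UMIs of endothelial nuclei were summed per library (171720 to 429988 UMIs) and, for interactions, per cluster with at least 5 nuclei in every library or per cell type. Genes detected in 5% or more of nuclei were tested with edgeR 4.0.16 (quasi-likelihood, TMM factors, Benjamini-Hochberg adjustment, threshold 0.05) in R 4.3.3, checked on simulated data. The design was AgRP-Gq;POMC-Gi against control with 2 libraries each. Shares were compared by exact permutation tests and intervals are exact binomial at 95%. Genes were named by rule: the 20 with the highest ratio over the next cell type at 50 CPM or more in every library, the 10 leading genes of each cluster, the 10 with the smallest p in each direction, and members of 38 gene lists. Members and lists were chosen with earlier results of these data known. Alternatives were DESeq2 1.42.0, other filters and scaling, a replicate block, thinning to 800 UMIs, and leaving out libraries, clusters or 1 nucleus. Promoters are RefSeq windows and gene positions are GENCODE M21, both on GRCm38. Comparisons by the authors were not used. Some list members were counted in their lists but are not reported here by name.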

Additional observations from a re-analysis of the deposited data

Results flagged for a closer look

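The difference between AgRP-Gq;POMC-Gi and control libraries was not the same across kinds of nuclei for a few genes, by edgeR interaction tests. It differed between the endothelial clusters for 28 genes, between endothelial and mural nuclei for 5 genes, and between endothelial nuclei and astrocytes for 1 gene, Csmd1. Without the nucleus with most UMIs, left out after seeing the data, 27 of the 28, 2 of the 5 and 0 of the 1 remained, where 39, 2 and 0 genes were called. With clusters of at least 10 nuclei in every library the first count was 0. None of the 28 had its highest level in endothelium, and the part of RNA from other cells was not tested.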

How the results depend on the processing

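No alternative set out at the start was left out, and those without cluster 164 and without the nucleus with most UMIs were chosen after seeing the data. The count of genes that differed between groups was 0 with no TMM factors, DESeq2, filterByExpr, a minimum of 10% of nuclei and without the nucleus with most UMIs. It was 52 (14 higher, 38 lower) of 18126 with no filter, 1 (Lcn2) without the clusters with leading genes of other cells, 5 (Xdh, Zbtb16, Rgcc, Fkbp5 and Slc7a1) of 3391 with nuclei thinned to 800 UMIs, 2 (Cdh18 and Lingo2) without cluster 164, and 25 and 59 without control replicates 1 and 2 and 11 and 20 without AgRP-Gq;POMC-Gi replicates 1 and 2. A lone library was then assumed to vary like the other group. Lcn2 was called on the higher side. Rgcc, Fkbp5 and Zbtb16 were called with no filter, with a replicate block and with thinned nuclei. Lingo2, a gene highest in other cells, was called with no filter, with a replicate block and without cluster 164. The other calls of these genes came from fits with 1 library left out. Rgcc, Fkbp5 and Zbtb16 were not called without AgRP-Gq;POMC-Gi replicate 2, the library where each was lowest. The cause was not tested.

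With replicate numbers as a replicate block, 42 genes were called (8 higher, 34 lower). The numbers were not taken as pairing, since same-numbered libraries deviated together with a correlation of 0.043 over 5884 genes and no label ties them. The replicate 2 libraries did share some features. Ttr in endothelial nuclei was at 7807 and 4200 CPM there, against 8.18 and 40.8 CPM in the replicate 1 libraries. Choroid plexus made up 4.34% and 3.30% of their kept nuclei, against 0.0206% and 0.0617%. Whether same-numbered libraries were handled together was not tested.

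Interaction counts between clusters were 17 with no TMM factors, 6 at 10% of nuclei, 0 with at least 10 nuclei per library and 6 to 27 without 1 library. Against mural nuclei they were 3 with no TMM factors, 2 at 10% of nuclei, 2 without the nucleus with most UMIs and 0 to 30 without 1 library, and against astrocytes 0 without that nucleus and 0 to 28 without 1 library.

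Differences in cluster shares (percentage points, AgRP-Gq;POMC-Gi minus control) that changed sign when 1 library was left out were those of cluster 24 (-12.2 to 3.25), cluster 131 (-3.29 to 0.362), cluster 164 (-10.8 to 2.55) and cluster 169 (-0.947 to 2.77, and -1.42 with nuclei of at least 1500 UMIs). Log2 fold changes that did so were those of Errfi1 (-0.88 to 0.33), Klf9 (-0.23 to 0.047), Cebpd (-0.36 to 0.77), Flt1 (-0.076 to 0.34) and Abcb1a (-0.20 to 0.062, and 0.022 without the clusters with leading genes of other cells). Errfi1 was also at 0.29 without control replicate 2.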

Other observations

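Agrp RNA was counted in 16.9% of endothelial nuclei (157 UMIs), at 118 ± 8.91 CPM over the 4 libraries, beside 4.66% of oligodendrocyte nuclei (20.0 ± 2.74 CPM, median 2460 UMIs) and 9.55% of mural nuclei (61.2 ± 15.7 CPM, median 1520 UMIs). Over all 13 other cell types the mean level ran from 20.0 CPM in oligodendrocytes to 88.0 ± 3.88 CPM in neurons and 90.2 ± 27.4 CPM in tanycyte-like nuclei. At their own depths a UMI was seen in 50.8% of neurons (median 8704 UMIs), 23.7% of choroid plexus (4291 UMIs), 20.8% of tanycyte-like (3198 UMIs) and 17.0% of astrocyte nuclei (3376 UMIs), and in 4.13% of Tmem119.Immune nuclei (1871 UMIs). With nuclei thinned to 800 UMIs the share was 9.0% in endothelium, 7.43% in tanycyte-like nuclei, 6.95% in neurons and 1.56% in oligodendrocytes. Pomc had 12 UMIs in endothelial nuclei.

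Of the immediate early genes that the study used, 3 of 10 passed the filter in endothelial nuclei, all with a positive log2 fold change, and 2 of the 3 lay above both controls (background 18.2%). Junb was at 54.5 and 39.5 CPM in controls against 87.4 and 102 CPM in AgRP-Gq;POMC-Gi (edgeR adjusted p = 0.50). Of 10 other immediate early genes 6 passed, 2 with a positive and 4 with a negative log2 fold change and a median of -0.08. Without overlap were 1 on the higher (background 18.2%) and 1 on the lower side (background 17.3%). Of 7 heat and stress genes 4 passed, 3 with a positive and 1 with a negative log2 fold change, and 2 of the 4 lay above both controls (background 18.2%). Of these, Hspb1 was at 302 and 258 against 338 and 501 CPM and the endoplasmic reticulum chaperone Hspa5 at 158 and 170 against 250.4 and 236 CPM, and neither passed the test.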
